A study of Homo sapiens with 2 samples.

Results

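The respiratory chain and the ATP synthase of L-540 cells were described from 118 probe sets for 81 genes, of 22215 probe sets on the array, comparing an untreated culture with one given vorinostat, an inhibitor of histone deacetylases. L-540 is an established cell line from Hodgkin lymphoma. A gene was taken as a member when its probe set carried 1 gene symbol and that symbol began with NDUF, SDHA to SDHD, UQCR, ATP5 or COX with a digit, or was CYC1 or CYCS. Each group held 1 Affymetrix HG_U133A array of total RNA, so there were no replicates, no test was run, and every difference below is between these 2 arrays without a replicate check. The labels gave no dose, no time and no vehicle for the control, and the cultures shared the same line and standard growth conditions.

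The values were MAS5 signals, linear intensities of 1 probe set each. Signals under a floor of 68.9 signal units, the 40th percentile of all signals, were set to it. A gene was represented by its brightest probe set, and log2 ratios are vorinostat over untreated. Probe sets whose names end in _s_at or _x_at may match more than 1 transcript or gene and are called shared below. They represented 37 of the 77 measured members, not all of which are marked below. Both arrays had a trimmed mean signal of 500.2, and the median log2 ratio of the 8277 measured genes was -0.04. The line was checked against its markers. TNFRSF8, which encodes the Hodgkin antigen CD30, had a signal of 10777 without and 3228 with treatment, and 7 of 8 Hodgkin markers were measured, CCL17 being the one under the floor on both arrays. Of 5 B cell markers on the array 2 were measured, PAX5 with 313 and 127 and CD22 with 186 and 128. Of 4 myeloid markers 2 were measured, CSF1R with 207 and 149 and ITGAM with 129 and 76.5. CD79A, CD79B, MS4A1, CD14 and LYZ were under the floor on both arrays. Of 10 T and natural killer cell markers 7 were measured, CD3E and NCAM1 above the floor untreated only. CD3D, CD3G and CD8A were under it on both arrays. The summed signal of the T and natural killer cell markers was 13633 and 5466, led by PRF1 and CD247, which L-540 expresses, and the summed signals of the B cell, the myeloid and the stromal and epithelial markers were at most 735.4 on either array. Their part in the ratios below was not tested. In total RNA from a culture, fewer cells and less RNA per cell cannot be told apart.

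The chain works in the inner mitochondrial membrane. Complex I takes electrons from NADH and complex II from succinate, ubiquinone carries them to complex III, cytochrome c carries them on to complex IV, and complex IV passes them to oxygen; the protons pumped on the way drive the ATP synthase, complex V. Most subunits are encoded in the nucleus, some by the mitochondrial genome, and the latter were not analysed here. Nuclear respiratory genes are known targets of the transcription factors NRF1 and GABP, an ETS family factor.

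Of the 81 genes, 77 were measured, each with both signals of its brightest probe set above the floor. NDUFAF5, NDUFAF7, COX7A1 and the antisense RNA NDUFB2-AS1 were under the floor on both arrays. By probe set, 108 of 118 were above the floor on both arrays, 3 on 1 array and 7 on neither. One symbol does not hold for its probe set: the accession of the COX20 probe set belongs to HOXA7, so its signals of 156 and 121 are not given as those of COX20. ATP5MC2P1, a pseudogene of a c ring gene, matched the rule by name and had signals of 131 and 144.

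Promoter sequence was read for 70 of the 81 genes, and sequences of 8 members were chosen to show the letters that NRF1 and ETS factors recognise in front of genes that were level, higher and lower in the treated array. They are from RefSeq, build GRCh38.p14, and run 5′ to 3′ toward the gene on its own strand, each ending before the annotated start. Capitals mark the NRF1 letters GCATGCGC, with the GC before them where the longer form of the motif is met, and the ETS letters CCGGAAG, on either strand.
SDHD, chr11:112086749-112086848, plus strand: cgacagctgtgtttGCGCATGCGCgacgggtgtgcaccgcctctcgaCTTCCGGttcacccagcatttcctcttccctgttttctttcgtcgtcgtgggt
NDUFB4, chr3:120596133-120596232, plus strand: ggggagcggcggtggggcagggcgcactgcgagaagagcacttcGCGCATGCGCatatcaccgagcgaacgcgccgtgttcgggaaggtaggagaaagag
ATP5F1C, chr10:7788077-7788176, plus strand: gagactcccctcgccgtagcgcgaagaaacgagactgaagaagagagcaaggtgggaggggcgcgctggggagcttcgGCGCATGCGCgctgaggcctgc
CYCS, chr7:25125376-25125475, minus strand: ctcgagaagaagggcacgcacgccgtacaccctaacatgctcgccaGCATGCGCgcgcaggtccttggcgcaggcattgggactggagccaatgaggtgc
NDUFS7, chr19:1383788-1383887, plus strand: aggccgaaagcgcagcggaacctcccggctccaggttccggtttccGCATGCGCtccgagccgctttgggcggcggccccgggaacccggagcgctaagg
NDUFS3, chr11:47578944-47579043, plus strand: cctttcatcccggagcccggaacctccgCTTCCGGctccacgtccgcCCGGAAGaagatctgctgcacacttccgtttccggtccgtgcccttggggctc
UQCR11, chr19:1605507-1605606, minus strand: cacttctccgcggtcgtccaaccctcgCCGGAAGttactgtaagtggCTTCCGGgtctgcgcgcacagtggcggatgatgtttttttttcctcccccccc
COX5B, chr2:97645962-97646061, plus strand: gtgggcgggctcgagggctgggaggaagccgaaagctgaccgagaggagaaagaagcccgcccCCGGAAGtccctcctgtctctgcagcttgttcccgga

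The members lay close to level. Of the 77 measured members, 1 passed 2-fold upward in the treated array and 0 downward, where 3.77% and 5.12% of all measured genes were. At the 1.5-fold threshold 6 members were higher and 4 lower, against 12.7% and 15.5% of all measured genes, and 67 lay within 1.5-fold. The log2 ratios of the members had a median of 0.08 and ran from -0.80 for CYC1 to 1.05 for COX11, with an SD over genes of 0.37, against 0.59 over all measured genes. Among the members 51 of 77 (66.2%) had a log2 ratio above 0, where 47% of all measured genes had. The members were bright, and bright genes differed less between the arrays: of the 1583 genes at least as bright as the members' lower quartile, 2.46% passed 2-fold upward, 3.16% downward and 52.9% lay above 0. Of the 58 members in that range, 1 passed 2-fold upward, 0 downward and 41 (70.7%) were above 0.

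**Figure D1:**
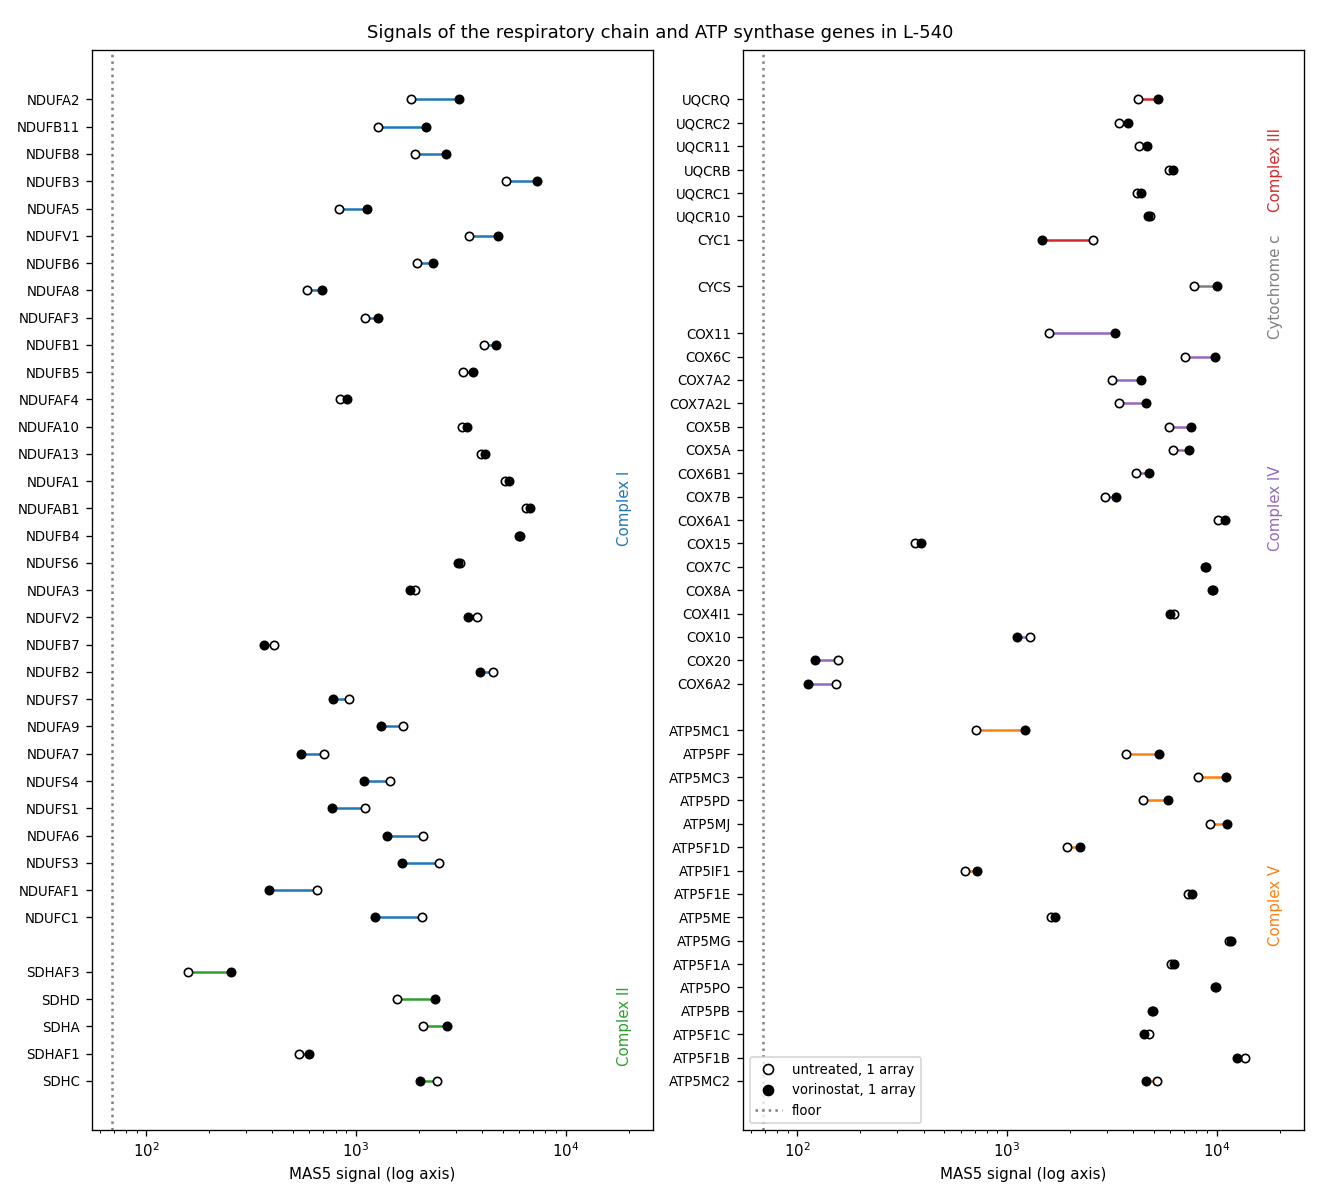
MAS5 signals of the 76 measured member genes other than the pseudogene, on a logarithmic axis, with the untreated array as open and the treated array as filled circles, ordered by ratio within each complex. All pairs lie above the dotted floor of 68.9, and COX11 has the widest pair to the right and CYC1 to the left.

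Complex I, the NADH dehydrogenase, held 31 measured genes: 28 subunits and 3 assembly factors. Its ratios spread to both sides, with 17 of 31 above 0, a median of 0.06, 2 genes past 1.5-fold upward and 3 downward. Among all measured genes 47% lay above 0, 12.7% passed 1.5-fold upward and 15.5% downward. Among the 1583 genes as bright as the members' lower quartile these shares were 52.9%, 12.3% and 10.3%. Of the 5 measured core subunits, the part of the enzyme that holds the redox centres, 4 were lower in the treated array. NDUFV1, which binds NADH, was the core subunit that was higher, with signals of 3474 untreated and 4742 treated. NDUFV2, its partner in the same module, had 3795 and 3434. NDUFS1, the large iron-sulphur subunit of that module, had 1108 and 771 (1.44-fold lower). In the module that reduces ubiquinone, NDUFS3 had 2500 and 1650 (1.52-fold lower) and NDUFS7, which holds the last iron-sulphur centre, had 928 and 775. The core subunits were each measured by 1 probe set, and those of NDUFS1 and NDUFS7 were shared ones. The number lower was 4 of 5 under each scaling tried.

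Of the 23 accessory subunits of complex I, which surround the core without redox centres, 14 had a log2 ratio above 0. Among all measured genes 47% lay above 0. NDUFA2 had signals of 1824 and 3110 (1.70-fold higher), on a shared probe set. NDUFB11, encoded on the X chromosome, had 1275 and 2166 (1.70-fold higher), on a shared probe set too. NDUFC1, a small membrane-arm subunit, had 2075 and 1226 (1.69-fold lower). These were the accessory subunits at least 1.5-fold apart. Just inside that bound, NDUFA6 had 2094 and 1402 (1.49-fold lower), and its other probe set had 449 and 239, a log2 ratio of -0.91. NDUFB8 had 1920 and 2695 (1.40-fold higher) and NDUFB3 had 5188 and 7264 (1.40-fold higher), the latter on a shared probe set. At the level end NDUFB4 had 6016 and 6077, and NDUFAB1, which is also the mitochondrial acyl carrier protein, 6491 and 6773. Of the assembly factors, NDUFAF1 had 649 and 387 (1.68-fold lower), whereas NDUFAF3 had a log2 ratio of 0.22 and NDUFAF4 of 0.11.

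Complex II, the succinate dehydrogenase, held 3 measured subunits and 2 assembly factors, 4 of the 5 with a ratio above 0. Among all measured genes 47% lay above 0. SDHA, the flavoprotein that oxidises succinate, had signals of 2099 and 2722 (1.30-fold higher) on a shared probe set. The membrane anchors SDHC and SDHD differed in direction. SDHD had 1565 and 2386 (1.52-fold higher), and its dim second probe set had 75.7 untreated and was at the floor when treated. SDHC had 2438 and 2009 (1.21-fold lower), and its 4 probe sets had log2 ratios between -0.37 and 0.08. The assembly factor SDHAF3 had 159 and 254 (1.60-fold higher), and SDHAF1, another, had 536 and 596. With 5 genes the median of 0.37 moved to 0.15 when the floor was the 60th percentile and to 0.24 when all probe sets of a gene were used.

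Complex III, the cytochrome bc1 complex, held 7 measured subunits. Of all 8277 measured genes 5943 lay within 1.5-fold, and so did 6 of these 7. The exception was CYC1, the cytochrome c1 subunit that hands electrons to cytochrome c, with signals of 2559 and 1472 (1.74-fold lower), the lowest ratio of all members. It was measured by 1 probe set. The core proteins UQCRC1 and UQCRC2 had 4149 and 4349, and 3431 and 3759; a second probe set of UQCRC2 had 1942 and 2997, a log2 ratio of 0.63. Of the small subunits, UQCRQ was the highest, with 4217 and 5240 (1.24-fold higher), and UQCR10 had 4812 and 4680. UQCRB had 5889 and 6188 on the brightest of 3 probe sets, and the others had log2 ratios of 0.36 and 0.79. CYCS, cytochrome c itself, which carries electrons from complex III to complex IV and also activates caspases when released, had 7790 and 10049 (1.29-fold higher). CYC1 and CYCS, the neighbours in this step, thus differed in direction, with a log2 ratio of -0.80 for CYC1 and 0.37 for CYCS.

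Complex IV, cytochrome c oxidase, held 16 measured genes, the probe set labelled COX20 among them, 12 of them with a ratio above 0 and a median of 0.14. Among all measured genes 47% lay above 0 (57.0% after scaling to equal medians). Of complex IV, the 10 subunits of the common isoforms were all within 1.5-fold. Of these 10, 9 had a ratio above 0 (10 of 10 after scaling to equal medians). COX6C was the highest of these, with signals of 7056 and 9770 (1.38-fold higher), followed by COX7A2 with 3162 and 4338 (1.37-fold higher). COX4I1, the largest nuclear subunit, was the one below 0, with 6225 and 6007, a log2 ratio of -0.05, on the brightest of 3 probe sets. The others had log2 ratios of 0.03 and, for a dim one at the floor when treated, -0.50. COX8A had 9512 and 9559 and COX7C 8772 and 8901. Of COX5B, which binds zinc, the brightest probe set had 5929 and 7529, and the log2 ratios of its 4 probe sets ran from -0.16 to 0.34. The isoforms of heart and muscle were at the low end: COX7A1 was under the floor on both arrays, and COX6A2 had 152 and 112. COX7A2L, which is related to COX7A2 and helps to join complexes III and IV, had 3408 and 4593 (1.35-fold higher).

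The single member at least 2-fold apart was an assembly factor of complex IV. COX11, which inserts copper into the catalytic subunit, had signals of 1590 untreated and 3285 treated (2.07-fold higher). Its second measured probe set had 197 and 346, a log2 ratio of 0.82, so that the median over its probe sets was 0.93, short of 2-fold. Both of these were shared probe sets, and the last one was under the floor on both arrays. COX10 and COX15, which make haem A for the same subunit, had 1294 and 1112, and 364 and 389. Neither haem factor passed 1.5-fold on its brightest probe set. The dimmer probe set of COX15 had 76.3 and 121, a log2 ratio of 0.66.

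**Figure D2:**
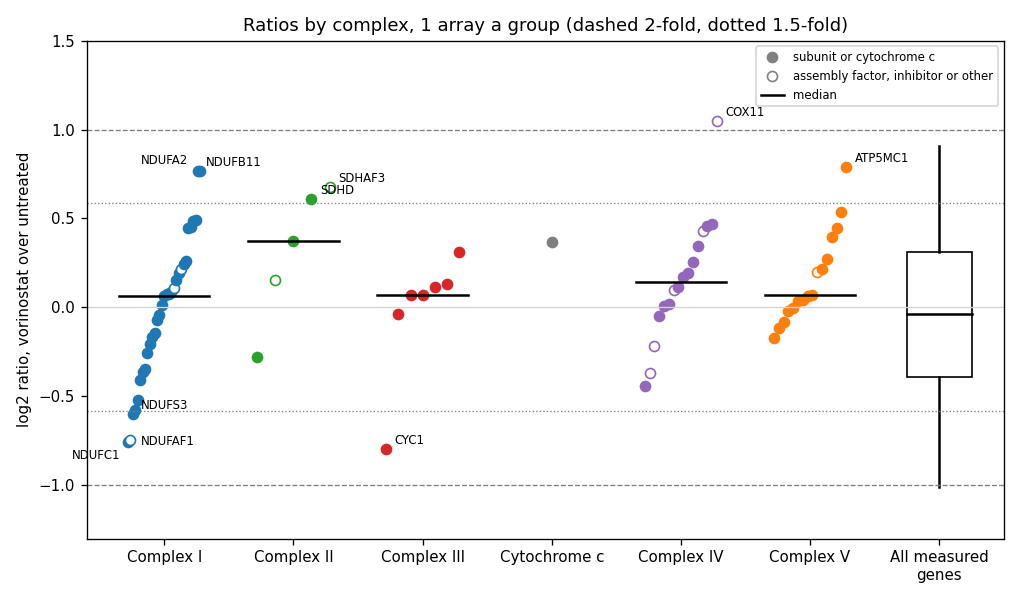
Log2 ratio of each measured member by complex, 76 genes without the pseudogene, with subunits filled and other proteins open; bars are medians, and the box for all 8277 measured genes spans the quartiles with lines to the 5th and 95th percentiles. COX11 stands above the dashed 2-fold line, CYC1 is the lowest point at -0.80, and the medians of complexes I, III, IV and V lie between 0.06 and 0.14.

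Complex V, the ATP synthase, held 16 measured genes, 11 of them with a ratio above 0 (15 after scaling to equal medians), 1 past 1.5-fold upward and 0 downward. Among all measured genes 47% lay above 0 (57.0% after scaling to equal medians), 12.7% passed 1.5-fold upward and 15.5% downward. The catalytic head was level: ATP5F1A had signals of 6081 and 6230, and ATP5F1B, the subunit that makes ATP, 13574 and 12534. In the central stalk, which turns inside the head, ATP5F1C had 4763 and 4498, ATP5F1D 1923 and 2232 and ATP5F1E 7256 and 7626. For ATP5F1C that was the brightest of 4 probe sets, and the others were higher in the treated array, with log2 ratios of 0.17, 0.24 and 0.42. The c ring, the rotor that protons turn, is encoded by 3 genes whose mature proteins are the same, and these differed. ATP5MC1 had 709 and 1224 (1.73-fold higher), on a shared probe set. ATP5MC3 had 8106 and 11046 (1.36-fold higher), and its second probe set had 6839 and 9395, a log2 ratio of 0.46. ATP5MC2 had 5193 and 4611 (1.13-fold lower), and its second probe set had a log2 ratio of -0.12. Thus 2 of the 3 genes were higher and 1 was lower, on each of their measured probe sets.

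In the peripheral stalk, which holds the head still, ATP5PF had 3675 and 5330 (1.45-fold higher) and ATP5PD 4440 and 5834 (1.31-fold higher), while ATP5PB had 4968 and 4896 and ATP5PO 9866 and 9859. The probe sets of ATP5PF, ATP5PD and ATP5PB were shared ones. Of the small membrane subunits, ATP5MJ had 9322 and 11243 (1.21-fold higher), ATP5ME 1616 and 1686 and ATP5MG 11398 and 11740. The 4 probe sets of ATP5MG had log2 ratios from 0.04 to 0.62, the dimmest being the highest. ATP5IF1, the inhibitor that stops the enzyme from running backwards, had 631 and 723.

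How far 1 probe set can be trusted was read from genes with several. For 20 member genes with at least 2 probe sets above the floor on both arrays (51 probe sets), the SD of the log2 ratio within genes was 0.24, and over all 2428 such genes it was 0.30. Of these 20 genes, 7 had probe sets on both sides of 0, and 671 of the 2428 did. The SD over the members was 0.37, as given above. The widest range was that of NDUFB8, at 0.80, with 1920 and 2695 on the brightest and 418 and 337 on the dimmest probe set. These figures hold probe design and shared sequence and leave out the spread between cultures.

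**Figure D3:**
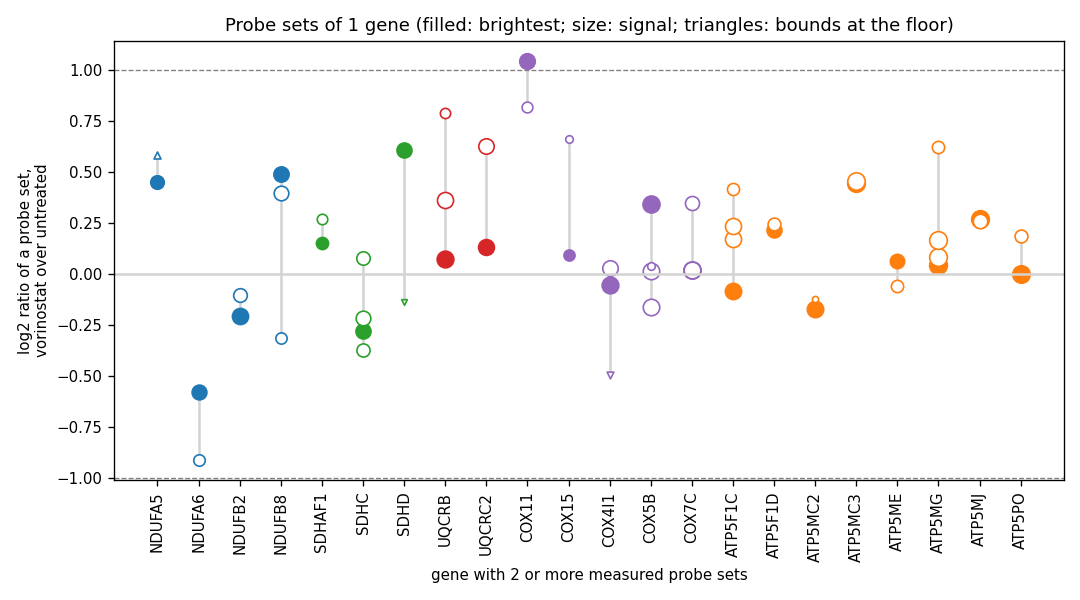
Log2 ratios of the measured probe sets of the 22 member genes that have at least 2, with the brightest filled, the symbol area growing with signal, and triangles for probe sets at the floor on 1 array. Both probe sets of COX11, NDUFA6 and ATP5MC3 lie on 1 side of 0, and those of NDUFB8, SDHC and COX5B lie on both.

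The promoters of the members held the letters of NRF1 and ETS factors more often than those of all array genes. In windows of 300 bases, 250 before and 50 after a start, the NRF1 letters GCATGCGC were found on either strand in 16 of 70 members (22.9%), against 5.28% of 9562 array genes and 3.05% of all 35116 windows. The longer form of 10 letters, which has GC in front and contains the shorter one, was found in 5 members (7.14%), against 2.22% of array genes and 1.24% of windows. The ETS letters CCGGAAG were found in 23 members (32.9%), against 17.8% and 10.3%. The letters AAGATGGCG of YY1 were found in 9 members (12.9%), against 3.95% and 1.75%. The letters GGGCGG of SP1 were found in 45 members (64.3%), against 69.8% and 45.0%. Genes with several annotated starts had more than 1 window, and a match is a description of letters. The genes printed above were chosen to differ in ratio, so their mix of directions is not a result. With the longer NRF1 form, SDHD had a log2 ratio of 0.61, NDUFB4 of 0.01 and ATP5F1C of -0.08. For ATP5F1C the median over its 4 probe sets was 0.21. With the shorter form CYCS had 0.37 and NDUFS7 -0.26, and with the ETS letters NDUFS3 had -0.60, UQCR11 0.12 and COX5B 0.34. Leaving out COX20, the median log2 ratio was 0.09 in the 22 measured members with the ETS letters and 0.08 in the 44 without. It was 0.11 in 15 with the shorter NRF1 letters and 0.08 in 51 without. For the YY1 letters it was -0.26 in 9 members and 0.11 in 57 without. These 9 ran from -0.58 for NDUFA6 to 0.54 for ATP5PF. Among them NDUFA6, NDUFA7, NDUFA9, NDUFB8, NDUFS4 and NDUFS7 belong to complex I. Whether any of these letters are tied to the ratios was not tested.

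The regulators themselves were mostly lower in the treated array. Of 12 measured regulators of respiratory genes, 3 passed 2-fold downward, 0 upward and 10 were below 0 (9 after each of 3 other scalings), with a median log2 ratio of -0.36. Among all measured genes 5.12% passed 2-fold downward, 3.77% upward and 47% lay above 0. Of the subunits of GABP, GABPA, which binds DNA, had signals of 392 and 214 (1.83-fold lower) and GABPB1, which activates transcription, 961 and 452 (2.13-fold lower), and the second probe set of GABPB1 gave a log2 ratio of -0.64. HCFC1, a coactivator that binds GABP, had 801 and 339 (2.37-fold lower), and PPRC1, a coactivator of the PGC-1 family, 322 and 152 (2.12-fold lower). NRF1 had 207 and 195, and the log2 ratios of its 3 probe sets ran from -0.21 to 0.34. YY1 had 3436 and 2811, SP1 195 and 142, ESRRA 565 and 480, POLRMT, the mitochondrial RNA polymerase, 1084 and 804, and TFB2M, its partner, 646 and 554. On the other side, TFAM, which packs mitochondrial DNA and helps to start its transcription, had 434 and 550. TFB1M, a methyltransferase of mitochondrial ribosomal RNA, had 384 and 543. PPARGC1A was under the floor on both arrays. The members that hold the ETS letters, which GABP shares with other ETS factors, had the median of 0.09 given above. Whether their ratios are tied to the signals of GABP was not tested. After scaling to equal medians the median of the regulators was -0.23, and GABPB1 and PPRC1 had log2 ratios of -0.96 and -0.95, short of 2-fold. GABPB1 was at -0.87 over both probe sets, and PPRC1 at -0.99 with quantiles matched, -0.98 after loess and -0.50 at the highest floor.

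Other parts of respiration spread to both sides. For comparison, 3.77% of all measured genes passed 2-fold upward and 5.12% downward. At 1.5-fold these shares were 12.7% and 15.5%, and 47% lay above 0. Of 16 measured genes of the citric acid cycle and pyruvate dehydrogenase, 1 passed 2-fold upward and 0 downward. Past 1.5-fold these 16 had 2 genes upward and 3 downward, 10 lay above 0, and the median log2 ratio was 0.26. IDH3A, the catalytic subunit of the NAD-dependent isocitrate dehydrogenase, had signals of 1044 and 2320 (2.22-fold higher). Its partners IDH3B and IDH3G had log2 ratios of -0.30 and -0.63, and the second probe set of IDH3G had -1.11. Of 19 measured assembly factors whose names lie outside the rule, 1 passed 2-fold upward and 0 downward (median 0.12). Past 1.5-fold these 19 had 5 genes upward and 3 downward, and 10 lay above 0. SURF1, a complex IV assembly factor like COX11, was the one past 2-fold. It had 1481 and 3035 (2.05-fold higher, with a log2 ratio of 0.99 after loess). Of 13 genes of ubiquinone synthesis and other electron donors, 1 passed 2-fold upward and 2 downward (median 0.03). Past 1.5-fold these 13 had 2 genes upward and 3 downward, and 7 lay above 0. COQ7, a hydroxylase of ubiquinone synthesis, had 366 and 147 (2.49-fold lower), PDSS2, which makes its side chain, 267 and 113 (2.37-fold lower), and ETFDH, which feeds electrons from fatty acid oxidation to ubiquinone, 267 and 542 (2.03-fold higher). With the floor raised to the 60th percentile COQ7 was at -0.68 and PDSS2 at -0.23 in log2 ratio, and ETFDH was at 0.87 over both of its probe sets and at 0.98 with the offset. The 7 measured carriers and channels for ATP, phosphate and anions were all within 1.5-fold (median 0.07), among them the phosphate carrier SLC25A3 with 13910 and 13546 and the ADP/ATP carrier SLC25A5 with 13041 and 12963.

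The ATP synthase was set beside its rotary relative, the proton pump of lysosomes, which runs the other way and spends ATP. Of 17 measured genes of that pump, 4 were at least 2-fold higher, 10 at least 1.5-fold higher and 0 lower at either threshold. Of the 17, 16 lay above 0, and the median log2 ratio was 0.72. Among all measured genes 3.77% passed 2-fold upward and 5.12% downward. At 1.5-fold these shares were 12.7% and 15.5%, and 47% of all measured genes lay above 0. After scaling to equal medians 7 of the 17 pump genes were at least 2-fold higher and their median was 0.85. For the median over probe sets ATP6V0A1, 1 of the 4, was at 0.88. Complex V had 0 of 16 at least 2-fold apart and a median of 0.07 (0.20 after scaling to equal medians). ATP6V1D, a stalk subunit of the pump, had 1928 and 5903 (3.06-fold higher), on the brightest of 3 probe sets whose log2 ratios began at 0.46. ATP6V1B2, which binds ATP, had 1428 and 3400 (2.38-fold higher). The mitochondrial ribosome, which makes the mitochondrially encoded subunits, had 0 of 49 measured genes past 2-fold upward, 2 downward, 19 of 49 above 0 and a median of -0.11. That median was 0.02, with 25 above 0 and 1 gene past 2-fold downward, after scaling to equal medians. The difference between these groups was not tested, since each rests on the same 2 arrays.

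**Figure D4:**
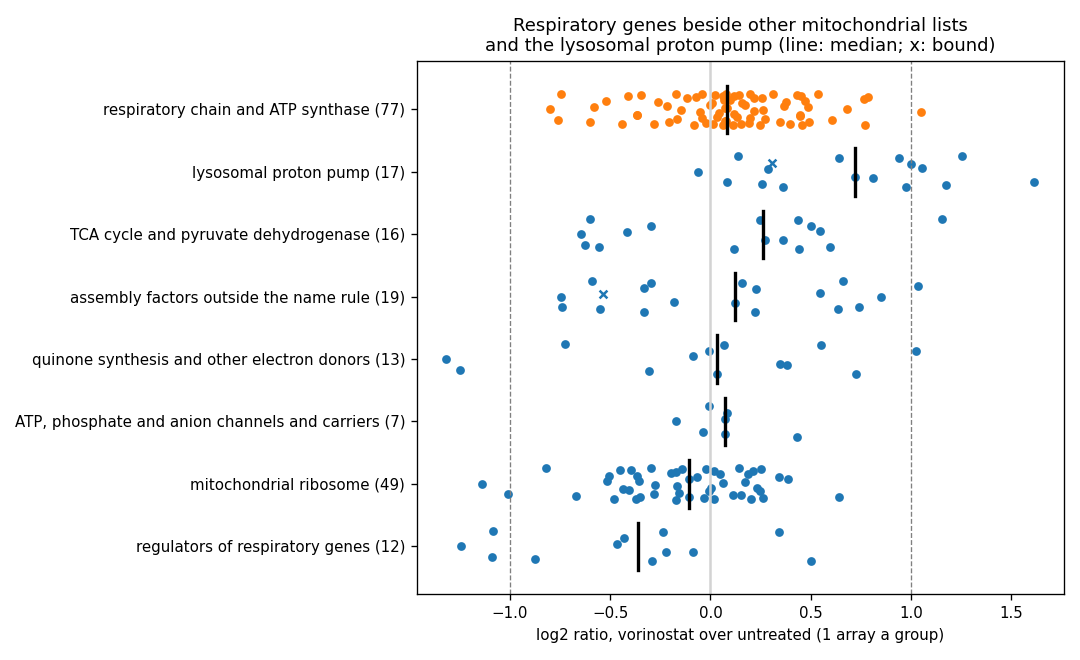
Log2 ratios of the 77 measured members, of 6 mitochondrial gene lists and of the lysosomal proton pump, 1 point a gene, with the median as a bar, crosses for bounds at the floor and dashed lines at 2-fold. The pump has its median at 0.72 and the regulators theirs at -0.36, with the members at 0.08 between them.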

How the data were processed

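The deposited values are MAS5 signals, which are linear intensity values per probe set, made by the authors with MAS5 per the submitters' processing notes; of its version, scaling target and detection calls nothing is given in the sources used here. The method scales each array by 1 factor, so a shift of most genes can move with the scaling. Of 22283 probe sets, 68 controls were left out. Gene symbols came from the platform's annotation; all 118 Entrez identifiers of the members were found under the same symbol in RefSeq (GRCh38.p14). Of 69 member probe sets with a known RefSeq accession, 1 named another gene.

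Signals under the floor, the 40th percentile over both arrays, were set to it before log2, and a probe set under it on both arrays was not measured. With 1 array per group there was no test; 2-fold and 1.5-fold are rules of size. Every member could be named; of other lists, members at least 2-fold apart, up to 4, and all regulators but those unmeasured or not on the array. SLC25A3, SLC25A5, IDH3B, IDH3G and the partners of named genes were chosen after their values were seen. The members, lists and settings were chosen with earlier results of these data known. The alternatives were equal medians, quantile normalization, loess, other floors, an offset of 16, the median over probe sets, no shared-sequence probe sets, thresholds of 1.5-fold and 3-fold, and subunits alone; leaving out the COX20 probe set and the background of bright genes were chosen after seeing the data. The steps that compute the ratios and choose the probe set of a gene were tested on simulated arrays, and the motif search on made sequences. Python 3.11.15, pandas 2.3.3 and numpy 2.4.6 were used.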

Additional observations from a re-analysis of the deposited data

How the results depend on the processing

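With 1 array per group the number of arrays limits the precision, and no error between cultures can be given. No paired analysis was possible because each group held 1 sample. Scaling to equal medians moved the median log2 ratio of all measured genes from -0.04 to 0.08, and the share of higher among all 2-fold calls from 42.4% to 58.8%. With it the median over all members was 0.21 in place of 0.08, that of complex I 0.19, of complex II 0.50, of complex III 0.20, of complex IV 0.27 and of complex V 0.20, and 11 members in place of 6 were at least 1.5-fold higher. The members' median lay between 0.09 and 0.16 above that of all genes in every setting. The log2 ratio of COX11 was 1.18 after scaling to equal medians, 1.02 after quantile normalization, 1.01 after loess, 1.04 with the offset and 0.93 for the median over probe sets, which left 0 members at least 2-fold higher; the other floors cannot change it. This number was also 0 without shared-sequence probe sets, 0 for subunits alone and 0 at 3-fold, and 6 at 1.5-fold. The number at least 2-fold lower was 4 at 1.5-fold and 1 with the offset, the antisense RNA NDUFB2-AS1, which is under the floor as reported. Without shared-sequence probe sets, which left 51 members, complex I had a median of -0.043, complex II of 0.61 and complex III of 0.31. For complex II it was 0.15 when the floor was the 60th percentile and 0.24 when all probe sets of a gene were used. Leaving out the COX20 probe set changed neither count.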

Other observations

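Of 12 probe sets that carry several gene symbols, 1 of them by the rule, 9 were measured and 0 were at least 2-fold apart. Their log2 ratios ran from -0.32 to 0.46 with a median of 0.17. No gene was named from them.

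Within genes, the dimmest probe set had a higher log2 ratio than the brightest in 13 of 20 member genes (65%), against 46.5% of the 2428 genes with at least 2 probe sets above the floor on both arrays. UQCRB had 163 and 282 on its dimmest and 5889 and 6188 on its brightest probe set, and ATP5MG 416 and 641 against 11398 and 11740. NDUFB8 went the other way, with 418 and 337 against 1920 and 2695. The cause was not tested.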
